A study of Arabidopsis thaliana with 3 samples.

Results

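KCS1 (AT1G01120, transcript AT1G01120.1, chromosome 1) encodes a 3-ketoacyl-CoA synthase, and all rows of the deposited table that carry its identifier are described here. It is 1 gene of the 6814 in the table, with 1 row and 1 transcript. KCS1 was chosen because of its reads in the start windows of these same libraries, so its values are given as a description, with no test. The libraries were made from total RNA of wild-type (Col-0) Arabidopsis thaliana, taken as whole seedlings at an age of 10 days. Seedlings were in white light, or had received 45 min or 90 min of light enriched in far-red, as below a leaf canopy. Transcript 5′ ends were sequenced with PEAT, a paired-end method for mapping transcription start sites, so a read stands for a presumed start. Each condition has 1 library, so no difference has a replicate check. How many seedlings were pooled in a library is not given in the sources used here.

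Fatty acids made in the plastid are lengthened in the endoplasmic reticulum by the fatty acid elongase, an enzyme complex that adds carbons from malonyl-CoA to an acyl-CoA in repeated cycles. A 3-ketoacyl-CoA synthase carries out the condensation that opens each cycle, a reductase, a dehydratase and a second reductase complete it, and the choice of synthase largely sets the length of the product. The very-long-chain products go into the wax of the cuticle, into suberin, sphingolipids and seed oils. KCS1 is known for a broad chain-length range and for a part in wax synthesis in the shoot.

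Counting 1 transcript per gene, the table summed to 3440656 reads for white light, 4373900 for 45 min and 4125024 for 90 min. It is a selection of transcripts for which the authors list a first and a second start window, so these sums are not the depth of the libraries. Where 3 values of a gene are listed together, they belong to white light, 45 min far-red and 90 min far-red in that order. Of the tissue markers looked up, the table held 0 of 3 for shoot photosynthesis, 1 of 3 for the epidermis, 1 of 3 for the root and 1 of 3 for flower and seed. The epidermal regulator ATML1 stood at 234, 219 and 197 reads per 1000000 table reads (RPM) in white light and after 45 and 90 min. The root and hypocotyl glucosidase PYK10 stood at 9884, 6834 and 7969 RPM, and the seed storage protein CRA1 at 32.3, 42.3 and 48.2 RPM. The other markers were not analysed here. In whole seedlings, fewer cells of a type and less RNA per cell cannot be told apart.

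KCS1 drew 8494 reads over the 3 libraries, which ranked it 153 of 6814 genes by read number. Its first window held 3986 of those reads and its second window 2947. The coding sequence is 1587 bases long, and 1327 bases of it (83.6%) lie downstream of the second window. The window is thus 260 bases into the coding sequence, which is 86 whole codons and 2 further bases. The full length is 529 codons with the stop codon. Which start codon a transcript from the second window would use was not examined.

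The deposited table lists 5 Pfam domains downstream of the KCS1 second window, each with an overlap value of 100. They are PF08392, PF08541, PF02797, PF08545 and PF00195. Other rows of the table name PF08541 as the C-terminal part of 3-oxoacyl-[acyl-carrier-protein] synthase III, PF08545 by the name of that synthase alone and PF02797 as the C-terminal domain of chalcone and stilbene synthases. PF08392 is known as the FAE1/type III polyketide synthase-like family and PF00195 as the N-terminal domain of chalcone and stilbene synthases. These families share the thiolase fold of condensing enzymes, and they can match the same stretch of a protein. Membrane-spanning segments, which anchor 3-ketoacyl-CoA synthases near their N-terminus, are not among the listed domains.

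The total KCS1 read level differed little between libraries. It was 681 RPM in white light (2344 reads, 95% exact Poisson interval 654 to 709), 655 RPM at 45 min (2863 reads, 631 to 679) and 797 RPM at 90 min (3287 reads, 770 to 825). The intervals of 45 min and white light overlap, and the 90 min interval lies above both. The level at 45 min was 0.961 times that in white light (log2 ratio -0.06). At 90 min it was 1.17 times that in white light (log2 0.23) and 1.22 times that at 45 min (log2 0.28). None of these reached a limit of 2-fold, which 25% of 6814 genes passed at 45 min against white light, 28.2% at 90 min against white light and 17% at 90 min against 45 min. Among the 301 genes within 2-fold of the KCS1 read number, only 13, 8 and 6 passed it in these pairs.

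Reads in the windows of KCS1 did not keep the same proportions. The first window held 1304 reads in white light (379 RPM, 95% exact Poisson interval 359 to 400), 1056 at 45 min (241 RPM, 227 to 256) and 1626 at 90 min (394 RPM, 375 to 414). It was low in the 45 min library, while the intervals of 90 min and white light overlap. The second window held 565 reads in white light (164 RPM, 151 to 178), 1207 at 45 min (276 RPM, 261 to 292) and 1175 at 90 min (285 RPM, 269 to 302). Here white light was low, and the intervals of the far-red libraries overlap each other. At 45 min the first window was thus at 0.637 times and the second at 1.68 times its white light level, a shift in opposite directions under a nearly equal total. At 90 min the first window was at 1.04 times and the second at 1.73 times its white light level.

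**Figure D1:**
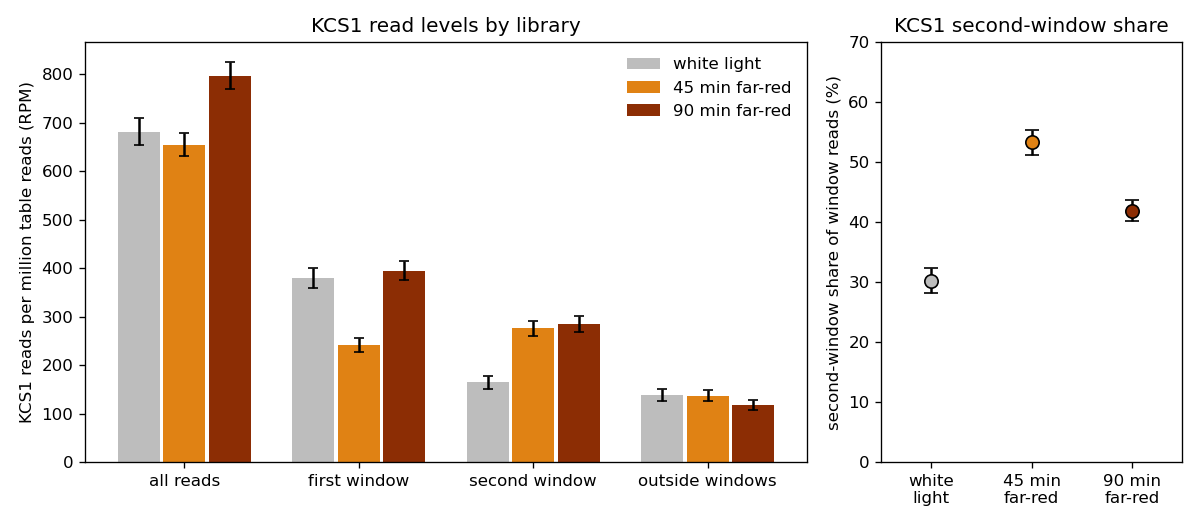
Left, KCS1 reads per 1000000 table reads in all reads, the first window, the second window and outside the windows, 1 bar per library with 95% exact Poisson intervals. Right, second-window share of window reads in percent with 95% Wilson intervals, highest at 45 min (53.3%) and lowest in white light (30.2%), 1 library each.

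The second-window share is the percentage of window reads that fell in the second window. It was 30.2% in white light (565 of 1869 window reads, 95% Wilson interval 28.2% to 32.4%). At 45 min it was 53.3%, or 1207 of 2263 window reads (51.3% to 55.4%), and at 90 min 41.9%, or 1175 of 2801 window reads (40.1% to 43.8%). The 3 intervals do not overlap, and the order was white light, 90 min, 45 min from low to high. All these intervals cover counting error only, since reads of a polymerase chain reaction without molecular identifiers are not independent molecules. Only at 45 min did the second window hold more KCS1 reads than the first. The ratio of second- to first-window reads was 1.14 at 45 min and 0.433 in white light, a 2.64-fold difference. At 90 min that ratio was 0.723, or 1.67 times the white light value and 0.632 times the 45 min value.

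As differences, the KCS1 share was 23.1 points higher at 45 min and 11.7 points higher at 90 min than in white light, and at 90 min it was 11.4 points lower than at 45 min. The white light library enters both far-red comparisons. Each of the 3 differences was past a limit of 10 points, but such differences were common in the table. With 20 or more window reads required in each library, 69.8% of 6095 genes moved by at least 10 points at 45 min against white light, 71.1% of 6094 at 90 min against white light and 62.8% of 6357 at 90 min against 45 min. The difference between 90 and 45 min depended on the denominator. As a share of all transcript reads, the second window held 35.7% at 90 min and 42.2% at 45 min, a difference of -6.41 points, under the limit.

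KCS1 reads outside both windows made up 20.3% of its reads in white light (475 reads, 95% Wilson interval 18.7% to 21.9%), 21.0% at 45 min (600 reads, 19.5% to 22.5%) and 14.8% at 90 min (486 reads, 13.6% to 16.0%). The 90 min library was low, and the intervals of the others overlap. Scaled to the table total these reads amounted to 138 RPM for white light, 137 RPM for 45 min and 118 RPM for 90 min. In the median gene the share outside was 8.11% for white light, 20.8% for 45 min and 14.7% for 90 min over all genes. In the 301 genes within 2-fold of the KCS1 read number the medians were 15.5%, 15.9% and 15.7%, so these genes, like KCS1, were near the same value in white light and at 45 min. The part of these differences between libraries in the KCS1 share was not tested.

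Since the size of such differences varied with read number, KCS1 was set beside the 301 genes with between 4247 and 16988 reads, that is within 2-fold of its own read number. In these genes 37.9% moved by at least 10 points at 45 min against white light, 36.5% at 90 min against white light and 31.2% at 90 min against 45 min. The median absolute difference was 7.59 points, 7.98 points and 6.93 points in those pairs. The KCS1 difference at 45 min against white light was equalled or passed in size by 23 of the 301 genes (7.64%), and in 17 of those 23 the share was higher at 45 min, as in KCS1. At 90 min against white light 92 genes (30.6%) differed by as much, and at 90 min against 45 min 71 genes (23.6%) did. KCS1 therefore lay in the upper tail of its read class at 45 min and inside the bulk at 90 min, and because it was chosen on these values its place is a description only.

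**Figure D2:**
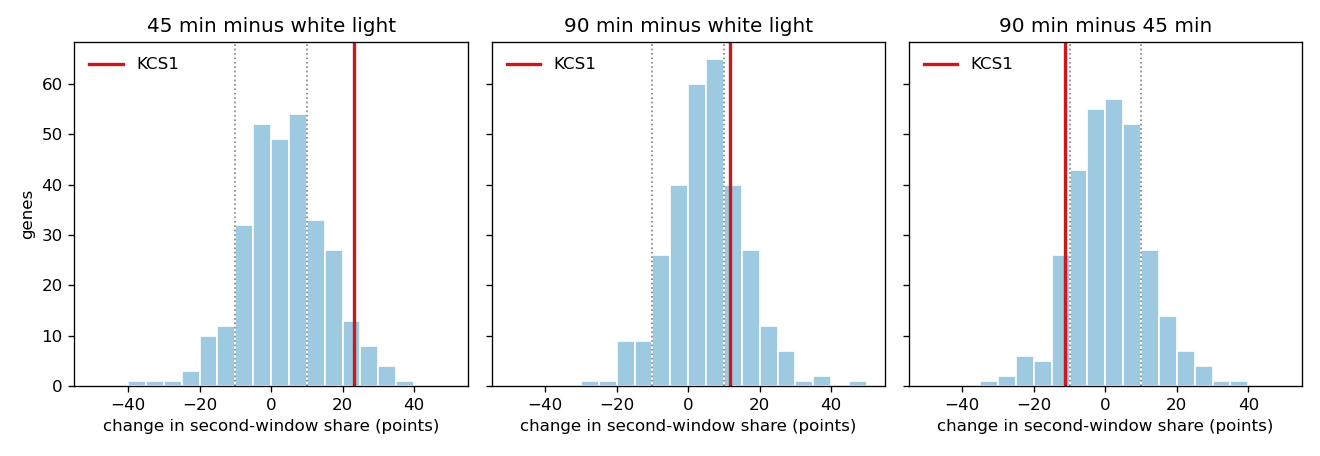
Histograms of the change in second-window share, in percentage points, of 301 genes within 2-fold of the KCS1 read number, for 3 pairs of libraries. The red line marks KCS1 at 23.1, 11.7 and -11.4 points, and dotted lines mark the limit of 10 points in either direction.

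In white light the KCS1 share was at the middle of that class, whose median was 29.6%. At 45 min the class median was 34.3%, and 93 of 301 genes had a share as high as KCS1. At 90 min it was 34.8%, and 129 genes did. The order white light, 90 min, 45 min from low to high was seen in 81 of the 301 genes (26.9%), and in 5 of them both steps were at least 10 points, as in KCS1. A first window lower and a second window higher at 45 min than in white light, in RPM, was seen in 101 genes (33.6%). The level of KCS1 was unremarkable in the class, where 272 of 301 genes had an absolute log2 ratio at least as large at 45 min against white light, and 164 did at 90 min against white light.

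By structure KCS1 stood nearer the edge of its read class. The median gene left at most 50.9% of its coding length downstream of a second window, and 38 of 301 left as large a fraction as KCS1. A median of 1 Pfam domain was listed downstream, and 18 genes had at least 5. A single second window was usual, found in 243 of the 301 genes.

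The 5 genes of the class whose shares lay closest to KCS1 were named by the largest difference from it in any of the 3 libraries. For AT2G44060 that difference was 3.49 points, with shares of 33.7%, 56.8% and 45.06% in white light and after 45 and 90 min. The shares of AT2G44060 sum 2 second windows, where KCS1 has 1. RLM3 (AT4G16990), a disease resistance protein with a TIR domain, differed by at most 4.48 points, with 34.2%, 48.9% and 43.4%. These shares rest on 486, 612 and 825 window reads, while RLM3 drew 8204 reads over the 3 libraries. Most RLM3 reads thus lay outside both windows. HEMB1 (AT1G69740), an enzyme of tetrapyrrole synthesis, differed by at most 6.06 points, with 30.3%, 47.3% and 40.3%. The histone H2A.Z gene HTA9 (AT1G52740) differed by at most 6.11 points, and AT5G06700 by at most 8.25 points. Likeness over 3 libraries was sought among 301 genes, so these matches are a description with no test. Their levels took other courses, since RLM3 stood at 519, 721 and 791 RPM and HTA9 at 537, 374 and 475 RPM in white light and after 45 and 90 min.

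**Figure D3:**
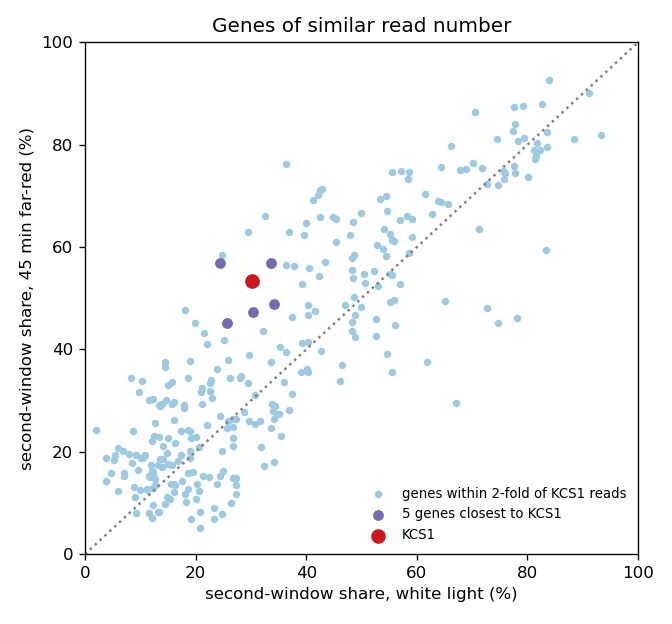
Second-window share in percent at 45 min (vertical) against white light (horizontal) for genes within 2-fold of the KCS1 read number, with equality as a dotted line. KCS1 lies above the line, at 53.3% for 45 min and 30.2% for white light, with the 5 genes closest to it around it.

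The KCS family was looked up as a list of 21 genes, of which the table held 8, namely KCS1, KCS3, KCS5, KCS9, KCS10, KCS11, KCS12 and KCS19. The other 13, which include the main wax synthase KCS6 and the seed oil synthase KCS18, were not analysed here. The 8 genes have 11 rows, each with its own second window. Only KCS1, KCS5 and KCS11 have a window with over 80% of the coding length left. These windows lie 260 bases into the coding sequence in KCS1, 219 in KCS5 and 251 in KCS11, and leave 5, 4 and 5 Pfam domains. All other windows of the family lie further in and leave 2 or 3 domains, which in every case include PF08541 and PF02797.

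**Figure D4:**
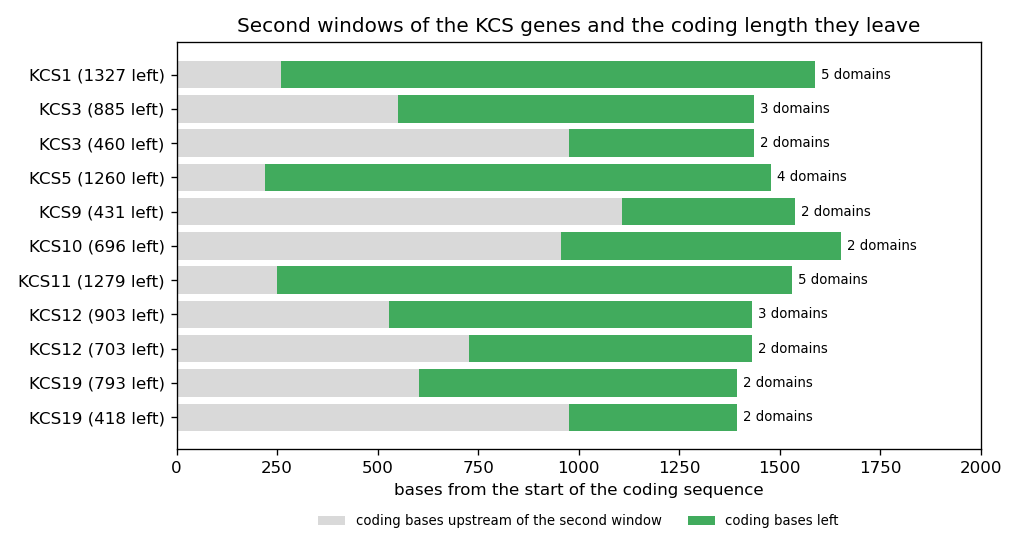
Coding sequence of each KCS row in bases, split into the part upstream of the second window (grey) and the part left (green), with the number of Pfam domains listed downstream. KCS1, KCS5 and KCS11 leave 1327, 1260 and 1279 bases.

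The genes with windows at a similar place showed smaller differences between libraries than KCS1. KCS5, also called CER60 and close to KCS6 in sequence, had a share of 14.9% in white light (143 of 962 window reads), 16.6% at 45 min (147 of 888) and 17.3% at 90 min (228 of 1318). Its 95% Wilson intervals, 12.8% to 17.3%, 14.3% to 19.1% and 15.4% to 19.4%, overlap. KCS11 had 18.7% (60 of 321), 17.7% (47 of 265) and 16.7% (38 of 227), with overlapping intervals as well. At 45 min against white light its share changed by -0.956 points and that of KCS5 by 1.69 points, where KCS1 changed by 23.1 points. A difference between these genes was not tested, since KCS1 was chosen on these values.

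Of the other KCS genes, KCS9, which makes very-long-chain fatty acids for wax, suberin and sphingolipids, was high at 45 min only. Its share read 9.97%, 27.5% and 10.1% in the libraries for white light, 45 min and 90 min, on 692, 705 and 721 window reads. KCS10, known as FIDDLEHEAD and needed to keep epidermal surfaces from fusing, was high at 90 min only, with 15.1%, 17.6% and 33.8% on 1249, 1202 and 1367 window reads. KCS3 had 1.94%, 42.5% and 54.8%, and KCS12 had 4%, 45.9% and 97.8%, both on fewer reads (127 to 210 for KCS3 and 50 to 159 for KCS12). KCS19 went the other way from KCS1, with 44.6%, 14.0% and 26.5% in the same order of libraries. The shares of KCS3, KCS12 and KCS19 each sum 2 second windows, where KCS1 has 1. The 2 windows did not keep the same proportions in any of these genes. In KCS3 the window with 885 coding bases left held 0, 6 and 79 reads, and that with 460 left held 3, 48 and 36. In KCS12 the window with 903 left held 1, 51 and 53 reads, and that with 703 left held 1, 22 and 80. In KCS19 the window with 793 left held 27, 0 and 75 reads, and that with 418 left held 81, 25 and 0. Without KCS1, 4 of 7 family members moved by at least 10 points at 45 min against white light (3 higher, 1 lower), 4 of 7 at 90 min against white light (3 higher, 1 lower) and 5 of 7 at 90 min against 45 min (4 higher, 1 lower). Their median change was 2.502, 2.43 and 12.2 points, beside 0, 2.42 and 2.58 points over all genes tested. Of all genes, 33.8% were higher and 35.9% lower by that limit in the first pair, 39% and 32.1% in the second, and 37.4% and 25.4% in the third.

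**Figure D5:**
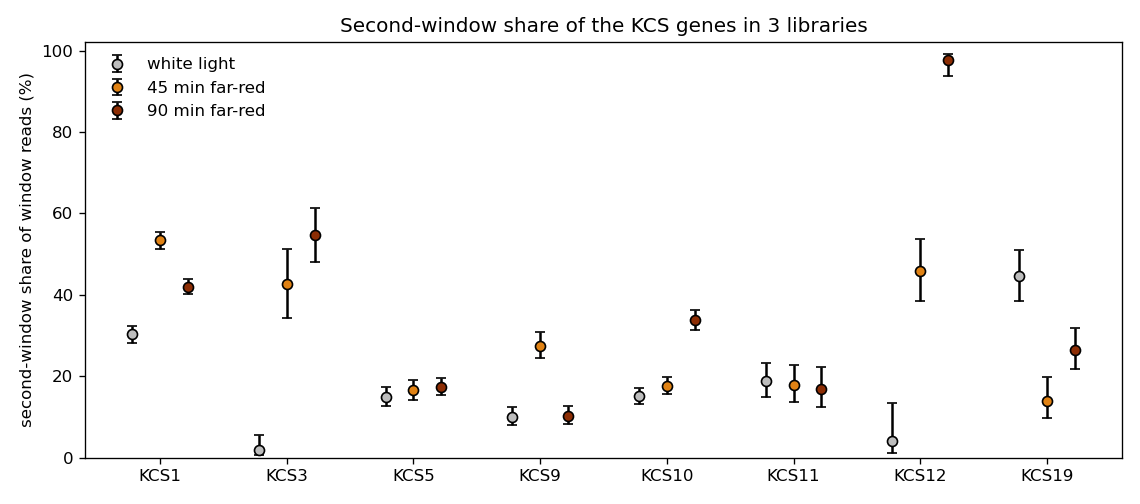
Second-window share of window reads in percent for the 8 KCS genes of the table in 3 libraries, with 95% Wilson intervals. KCS5 and KCS11 stay between 14.9% and 18.7%, while KCS1 lies between 30.2% and 53.3%.

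In read level, 0 of the other 7 KCS genes differed by 2-fold in any pair, where 25%, 28.2% and 17% of all genes did, so with 7 genes little can be read from that count. Their log2 ratios lay between -0.50 and 0.00 at 45 min against white light, between -0.64 and 0.30 at 90 min against white light and between -0.33 and 0.76 at 90 min against 45 min. KCS10 stood at 452, 415 and 511 RPM in white light and after 45 and 90 min, an order it had in common with KCS1. KCS5 stood at 285, 230 and 351 RPM and had that order too. KCS11 was lower in both far-red libraries, at 126, 91.9 and 80.5 RPM.

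Partners of the elongase were represented by 4 of 8 listed genes, while the reductases KCR1 and CER10 and the dehydratase PAS2 were not analysed here. CER2 (AT4G24510), a BAHD-type protein needed for the longest wax chains, had levels of 1634, 2953 and 2561 RPM in white light and after 45 and 90 min. Its share was 76.0%, 60.4% and 77.1%, so at 45 min it was 15.6 points lower than in white light, where KCS1 was higher. CER26 (AT4G13840), a relative of CER2, had 38.3%, 59.4% and 73.3%, which is higher at 45 min as for KCS1 and higher still at 90 min. The CER2 relative AT3G23840 had 74.9%, 51.9% and 86.6%. PAS1 (AT3G54010), an immunophilin that binds the elongase, had 26.7%, 31.0% and 42.8%.

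For the supply of substrates the table held 5 of 6 listed genes. ACC1 (AT1G36160), the cytosolic acetyl-CoA carboxylase that makes malonyl-CoA, was within 8.88 points of KCS1 in every library, closer than any other listed gene, with shares of 31.6%, 56.8% and 50.8% in white light and after 45 and 90 min. Its window reads were fewer, at 395, 426 and 423 of 1320, 1441 and 1453 transcript reads, so most of its reads lay outside both windows. The closest gene was sought among all listed genes, so this likeness is a description with no test. FATB (AT1G08510), a thioesterase that releases saturated fatty acids from the plastid, had 34.6%, 27.1% and 19.7%. FATA (AT3G25110), the thioesterase for oleate, had a level of 52.3, 12.6 and 19.9 RPM, and only 16 window reads at 45 min. Its share was 1.22% of 82 window reads at 90 min, against 55.6% of 135 in white light, a change of -54.3 points and opposite in direction to KCS1. Of the long-chain acyl-CoA synthetases of wax and cutin, LACS1 (AT2G47240) had 0 of 146 window reads in its second window in white light, which allows a share of up to 2.05%, and 78.1% of 64 at 45 min. LACS2 (AT1G49430) had 49.6%, 43.1% and 76.1%, and its level at 45 min was 0.407 times that in white light.

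Wax synthesis, export and regulation after the elongase were covered by 9 genes, and ceramide synthesis by LOH3 (AT1G13580). CER1 (AT1G02205), which makes alkanes, was lower in level in both far-red libraries, at 95.6, 42.1 and 64.7 RPM for white light, 45 min and 90 min, with shares of 41.3%, 28.3% and 11.7%. The exporter ABCG11 (AT1G17840) had shares of 67.1%, 70.9% and 85.8%, and the lipid transfer protein LTPG2 (AT3G43720) 18.7%, 18.4% and 25%. Among the regulators, the wax activator MYB96 (AT5G62470) stood at 38.4, 101 and 113 RPM, or 2.62 times the white light level at 45 min and 2.94 times at 90 min. Its share was 38.6%, 28.1% and 27.0% on 44, 367 and 355 window reads. The Wilson interval in white light, 25.7% to 53.4%, overlaps those at 45 min (23.7% to 32.9%) and 90 min (22.7% to 31.9%). A direction opposite to KCS1 can thus not be read from the MYB96 share. The wax repressor DEWAX (AT5G61590) kept shares of 12.7%, 15.5% and 12.9%. MYB30 (AT3G28910) stood at 30.8, 13.5 and 18.9 RPM, or 0.438 times the white light level at 45 min. Its share was 52.8%, 51.4% and 100% on 106, 37 and 48 window reads. MYB16 (AT5G15310) had 35.1%, 14.9% and 0 of 169 reads, which allows up to 1.78%. The exosome subunit CER7 (AT3G60500) had 65.3%, 62.4% and 39.0%, and the ubiquitin ligase CER9 (AT4G34100) had 3.93%, 33.5% and 20.2%. Of the 26 listed genes other than KCS1, only CER9, KCS9, ACC1, DEWAX and LOH3 had the KCS1 order of libraries. Among the 301 genes of similar read number 26.9% had it. Wilson intervals of white light and 90 min overlap in KCS9 and DEWAX. Those of 45 and 90 min overlap in DEWAX, ACC1 and LOH3. LOH3 had 55, 20 and 33 window reads. Of these, 0 fell in the second window in white light (up to 5.45%), 60% at 45 min and 54.5% at 90 min. At 45 min the level of LTPG2 was 0.421 times and that of LOH3 0.415 times the white light level. The shares of LACS2, CER1, ABCG11 and LOH3 each sum 2 second windows, and that of MYB30 sums 3.

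Over all 26 listed genes other than KCS1 that the table held, 14 of 25 with enough window reads moved by at least 10 points at 45 min against white light (8 higher and 6 lower). At 90 min against white light 19 of 25 did (12 higher and 7 lower), and at 90 min against 45 min 16 of 24 did (11 higher and 5 lower). The shares of all genes past that limit were 69.8%, 71.1% and 62.8%. The median change over the listed genes was 1.69, 6.33 and 3.69 points in these pairs, beside 0, 2.42 and 2.58 points over all genes. In level, 1 gene was at least 2-fold higher and 6 at least 2-fold lower at 45 min than in white light, and 1 higher and 3 lower at 90 min. The 6 lower genes had between 29 (LOH3) and 305 (LTPG2) reads at 45 min. With 26 genes and 1 library per condition, little can be read from these counts. Over all genes 14.1% were higher and 10.9% lower at 45 min, and 15.8% higher and 12.4% lower at 90 min. At 90 min against 45 min 1 listed gene was higher and 0 were lower, where 8.66% of all genes were higher and 8.38% lower. Their median log2 ratio was -0.44 at 45 min and -0.13 at 90 min against white light, beside -0.03 and -0.0010 over all genes.

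RefSeq's annotation lists no gene that overlaps KCS1, and the genes on either side, IQD18 and AT1G01130, were not analysed here. No other gene of the table has the same first-window counts in the 3 libraries. Whether reads of KCS1 also match other KCS genes cannot be told from counts per transcript.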

How the data were processed

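The authors deposited raw counts per library for each transcript, its first start window and its second start window, per the file headers. The deposited table also gives coding lengths, the length left downstream of the second window and the Pfam domains there, with an overlap value whose scale is not stated. FastQC, cutadapt, HISAT2 2.0.5, SAMtools 0.1.19 and bedtools 2.17.0, with builds TAIR9 and TAIR10, are named without roles in the submitters' processing notes. The window width, any removal of duplicates and the selection rule are not given in the sources used here, and the smallest transcript in the table has 100 reads. Whether transcripts were selected by differences between the libraries is thus not known. Fractions of genes past a limit hold for this selection only.

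From the 14437 rows, the transcript with the most reads stood for each gene (ties to the lowest isoform number) and its second windows were summed. Levels are reads per 1000000 table reads, and log2 ratios add a pseudocount of 1. With 1 library per group no model or test of conditions was run. Genes were counted past 10 points of share, with at least 20 window reads in both libraries, or past a 2-fold level. Intervals are 95% Wilson or exact Poisson, and a count of 0 allows up to 3 reads. KCS1, all listed genes in the table and the 5 closest genes are named. The gene and the lists were chosen with earlier results of these data known. Gene names come from RefSeq TAIR10.1, where 6799 of 6814 genes matched. Python 3.11.15, pandas 2.3.3 and SciPy 1.17.1 were used, and the calculations were tested on simulated data. Alternatives were other scalings, pseudocounts, denominators, limits and sets of genes of similar read number.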

Additional observations from a re-analysis of the deposited data

How the results depend on the processing

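No paired analysis was possible because there is only 1 library for every condition, which also leaves no replicate to omit. KCS1 has 1 isoform and 1 second window in the table, so other isoforms and single second windows gave no further value. Every log2 ratio of the KCS1 level kept its sign and stayed within its counting error under pseudocounts of 0.5 and 5 and under median-of-ratios scaling, and every change in the KCS1 share kept its sign with the other denominator. Leaving the 10 genes with the most reads out of the total set the KCS1 level at 851 RPM for white light, 832 RPM for 45 min and 991 RPM for 90 min, which follows from the smaller total. With all transcript reads as the denominator, the KCS1 change was 18.1 points at 45 min against white light and -6.41 points at 90 min against 45 min. With 100 window reads required in both libraries, fewer genes were counted, and 2063, 2029 and 1924 moved by at least 10 points at 45 min against white light, 90 min against white light and 90 min against 45 min. In the first of these pairs the balance turned, with 1080 higher and 983 lower, beside 2063 higher and 2190 lower at 20 window reads. A limit of 20 points gave 2875 of 6095, 3091 of 6094 and 2434 of 6357 genes in the 3 pairs. A 4-fold level gave 527, 662 and 253 of 6814 genes. At 90 min against 45 min the balance of levels turned as well, with 87 higher and 166 lower at 4-fold, beside 590 higher and 571 lower at 2-fold. Among the listed genes a limit of 20 points left 10 of 25 at 45 min and 10 of 25 at 90 min against white light. At 90 min against 45 min it left 5 of 24. In every pair this was a smaller fraction than over all genes. At the limit of 10 points the fraction was smaller at 45 min against white light only, and larger in the other pairs. With so few listed genes, not matched for read number, little can be read from these fractions. Counting error on 1869 to 2801 window reads set the width of the KCS1 intervals, and the spread between libraries of 1 condition cannot be measured here.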
